A study of Mus musculus with 4 samples.

Results

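The comparison described here sets the spinal dorsal horn of Gpr37l1-/- mice 1 day after spared nerve injury (SNI) against that of naive Gpr37l1-/- mice, by single-nucleus RNA sequencing. The members are the nuclei of the 2 libraries whose titles give these conditions, with at least 300 genes detected and under 5% of unique molecular identifiers (UMIs) from mitochondrial genes. They number 27891 in the SNI library and 37497 in the naive library, 65388 in all, of 112194 kept in the whole series of 4 libraries. The other 2 libraries hold wild-type (Gpr37l1+/+) nuclei, 27113 after SNI and 19693 naive, and their values stand beside the knockout values where they bear on the description. The labels give no age, sex, strain or number of animals per library, and do not say how the Gpr37l1 allele was made or whether nuclei of several animals were joined.

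GPR37L1 is an orphan-class receptor of the G protein-coupled family that in the central nervous system is known chiefly from astrocytes, and prosaposin has been proposed as its ligand. In SNI the tibial and common peroneal branches of the sciatic nerve are cut and the sural branch is spared, which leaves lasting mechanical allodynia. The dorsal horn is where the severed sensory axons end, and its microglia and astrocytes are known to respond to the injury. The question set by the design is which genes and cell classes differ after injury when the receptor is absent.

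Each condition is 1 library, so no test was possible. Differences are given as ratios with 95% intervals that cover counting error only. Animal, dissection and library differ together with the injury and cannot be told apart from it. The treatment tag of the naive knockout library reads as injured, against its title and its library name, and the wild-type SNI library carries the opposite conflict. Groups follow the titles throughout. The naive knockout library stood apart in several ways before any gene was compared. It held 69572640 UMIs against 44079044 in the SNI library, and its median nucleus held 1510 UMIs and 1025 genes against 1286 and 887. A cluster led by Actb and other abundant cytoplasmic transcripts took 5028 of its nuclei and 564 of those after SNI, while in the wild type it took 161 naive and 5215 SNI nuclei. The summed level of 6 neuron markers in its astrocyte-like nuclei was 13538 CPM (UMIs of a gene over all non-mitochondrial UMIs of the class, scaled to 1000000), against 9851 after SNI. The 2 libraries shared 293 barcodes, 1.05% of the smaller, and the other pairs of libraries shared between 162 and 273. Y-linked transcripts were present in both libraries, and Xist had 12 UMIs in the naive and 6 in the SNI library.

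Gpr37l1 itself (ENSMUSG00000026424, chromosome 1, 135160234 to 135167681, GRCm38) had 22 UMIs over all naive knockout nuclei and 11 after SNI, or 0.336 and 0.272 CPM. Wild-type nuclei held 424 and 1103 UMIs. In astrocyte-like nuclei the knockout libraries had 0 and 3 UMIs against 144 and 222 in the wild type, as the genotype labels have it. Gpr37, the closest relative of Gpr37l1, stood at 53.6 CPM in the naive and 40.1 CPM in the SNI library over all nuclei, a log2 ratio of -0.42. Psap, which encodes prosaposin, was at 419 CPM in the astrocyte-like nuclei of the naive library and at 409 CPM after SNI. Neither passed 2-fold.

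Clusters were named from marker genes as astrocyte-like, microglia-like, oligodendrocyte-like, oligodendrocyte precursor (OPC)-like, excitatory-like and inhibitory-like, and are called by these class names below. After removal of predicted doublets, 35700 naive and 26315 SNI nuclei remained. The 6 classes held 20525 and 18427 of them. The names are rebuilt here and rest on markers alone.

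Astrocytes and microglia made up a larger part of the nuclei after injury. Astrocytes were 8.26% (95% exact binomial interval 7.89 to 8.64) of the nuclei in the 6 classes in the naive library and 12.7% (12.3 to 13.2) after SNI, a ratio of 1.54. Microglia, the resident immune cells of the cord, were 4.42% (4.14 to 4.71) and 8.08% (7.69 to 8.48), a ratio of 1.83. The wild-type ratios were 1.42 and 1.36 within the 6 classes. Over all wild-type nuclei kept they were 1.04 and 1, so the wild-type values depend on which nuclei are counted. Oligodendrocytes went from 30.8% to 26.0%, a ratio of 0.844, and OPCs, excitatory and inhibitory neurons lay within ratios of 0.928 to 1.02. Over all knockout nuclei kept, the ratios of these classes were 1.03, 1.24, 1.13 and 1.16 in that order. Their directions in the knockout thus also depend on which nuclei are counted. The astrocyte value rests on shallow nuclei. Among nuclei with at least 500 genes and 1000 UMIs, taken over all nuclei kept, the astrocyte ratio was 0.967 where it was 1.88 over all nuclei, and the microglia ratio was 2.30 where it was 2.23. The median depth of an astrocyte was 1228 UMIs in the naive and 868 in the SNI library, and that of a microglial nucleus 1164 and 1140. A share of nuclei can move through recovery in the preparation as well as through cell number, and the part of either was not tested.

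**Figure D1:**
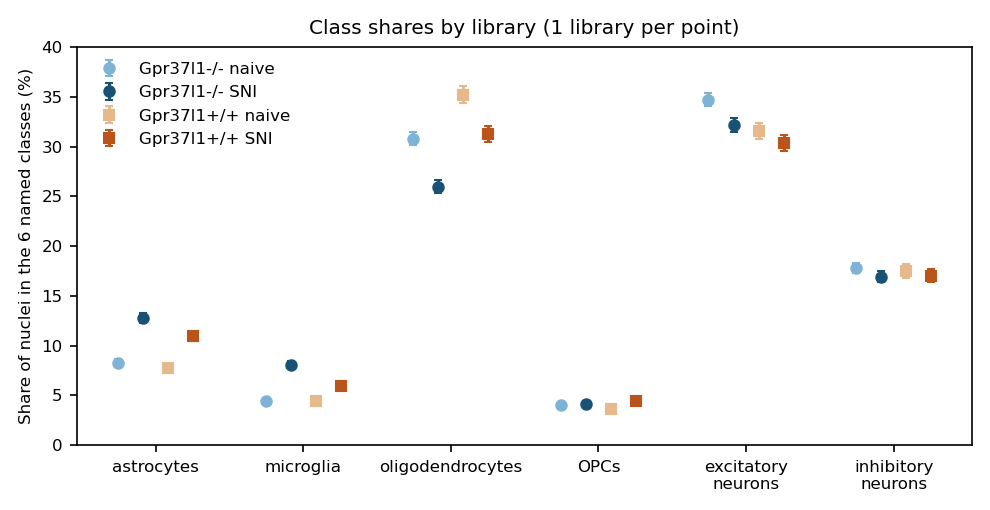
Share of each named class among the nuclei of the 6 classes, in percent, in the 4 libraries, with exact binomial 95% intervals. In the knockout the astrocyte share was 8.26% in the naive and 12.7% in the SNI library, and the microglia share 4.42% and 8.08%.

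Over all nuclei, 1458 of 17931 genes with at least 50 UMIs in the 2 knockout libraries lay past 2-fold, which is 8.13%. Of these, 1389 (7.75% of the genes tested) were higher after SNI and 69 (0.385%) were lower, and the median gene had a log2 ratio of 0.08. In the wild type 1.5% lay past 2-fold. Sprr1a and Atf3, both known from injured peripheral neurons, had the highest ratios among the genes named by the rule. Sprr1a, a small proline-rich protein known for its role in axon outgrowth (ENSMUSG00000050359, chromosome 3, 92483952 to 92485895), had 1 UMI in the naive library and 594 after SNI, or 0.0153 and 14.7 CPM, a log2 ratio of 9.91 (7.42 to 15.21). In the wild type it had 0 and 51 UMIs. Atf3, a stress-induced transcription factor of the ATF/CREB family (chromosome 1, 191170296 to 191218039), had 10 and 385 UMIs, a log2 ratio of 5.96 (5.06 to 7.03), and 8 and 47 in the wild type. Prph, the intermediate filament peripherin of peripheral neurons and motor neurons, had 61 and 773 UMIs, a log2 ratio of 4.36 (3.98 to 4.76), against 1.11 in the wild type.

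Chemokines and other injury transcripts stood beside them. Ccl7 had 6 UMIs in the naive and 189 in the SNI library, and Ccl2 had 3 and 74. Both encode attractants of monocytes, and both had fewer UMIs in the wild type after SNI, 12 for Ccl7 and 24 for Ccl2. Ccl12, a related attractant, had 8 and 93 UMIs in the knockout but 3 and 510 in the wild type. Galectin 1 (Lgals1) went from 1.70 to 22.2 CPM, annexin A2 (Anxa2) from 1.15 to 13.3 CPM and Hspb1, of the small heat shock family, from 2.66 to 19.3 CPM, with log2 ratios of 3.71, 3.54 and 2.86. All 3 also had log2 ratios above 0 in the wild type, of 0.99, 1.63 and 1.71. The list of 32 axon injury and regeneration genes passed the 50-UMI minimum in full, with 10 members past 2-fold higher, 0 lower and a median log2 ratio of 0.59, against 0.08 over all genes tested.

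Of the 12 genes with the highest ratios over all nuclei, 7 matched a promoter in the RefSeq table of mouse promoters (GRCm38.p6). They were picked by their ratios alone. The proteins of Atf3 and Jun bind the activator protein 1 (AP-1) motif, and whether they act on any of these genes was not tested. The 250 bases before the start of 2 of them held the AP-1 motif TGANTCA, which reads the same on both strands, given in capitals and lying 5′ to 3′ on the strand of the gene. In Sprr1a (chr3:92485882-92486131, minus strand) the motif began at -146 and -116 from the start, and in Anxa2 (chr9:69453433-69453682, plus strand) at -95.
Sprr1a: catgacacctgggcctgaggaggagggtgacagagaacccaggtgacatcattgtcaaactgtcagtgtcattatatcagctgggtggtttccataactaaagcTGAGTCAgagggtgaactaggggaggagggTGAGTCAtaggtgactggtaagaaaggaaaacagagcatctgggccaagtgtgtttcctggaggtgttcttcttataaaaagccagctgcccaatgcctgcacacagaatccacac
Anxa2: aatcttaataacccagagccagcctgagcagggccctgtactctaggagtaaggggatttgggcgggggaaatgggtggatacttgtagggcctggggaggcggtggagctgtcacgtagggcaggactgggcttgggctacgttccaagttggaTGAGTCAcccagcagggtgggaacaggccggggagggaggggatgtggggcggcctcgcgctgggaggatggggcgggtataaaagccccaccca
The share was 28.6% of 7 against 6.75% of all 32851 promoters in the table. The STAT motif TTCNNNGAA, searched on both strands, was in 0 of the 7 and in 7.02% of all. A match describes these letters only.

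The axon injury transcripts were not confined to neurons. Sprr1a reached 14.7 CPM in excitatory and 14.9 CPM in inhibitory neurons after SNI, and 17.5 CPM in astrocytes, 12.8 CPM in microglia, 28.8 CPM in oligodendrocytes and 21.2 CPM in OPCs. It had 0 UMIs in each of these 6 classes in the naive library. To form a ratio, 3 UMIs were put in place of the naive 0. Sprr1a was then 66.9-fold higher in excitatory neurons, with 126 UMIs, and 62.7-fold higher in oligodendrocytes, with 116. In inhibitory neurons, with 74, it was 37.4-fold higher. These ratios depend on the value put in and are not lower bounds. Nuclei with a Sprr1a UMI were 1 of 35700 in the naive library and 576 of 26315 (2.19%) after SNI, and no nucleus held more than 4. By class the share after SNI lay between 1.95% and 2.37%, while the median depth of the classes ran from 733 UMIs in oligodendrocytes to 1439 in inhibitory neurons. With each nucleus thinned to 1000 UMIs the share over all nuclei was 1.35%, and by class it ran from 0.720% (0.26 to 1.56) in microglia to 2.31% (1.47 to 3.44) in oligodendrocytes. Excitatory and inhibitory neurons lay between, at 1.53% and 1.67%. Atf3 was found in 1.35% to 1.88% of nuclei by class after SNI, and Prph in 2.50% to 2.99%. After thinning Prph ran from 0.662% (0.08 to 2.37) in OPCs to 2.91% (1.96 to 4.16) in oligodendrocytes. Glia thus held these transcripts in shares near those of neurons, and the cells they came from were not tested.

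S100a10 and Calca followed the same pattern at higher levels. S100a10, a calcium-binding partner of annexin A2, went from 430 to 1815 UMIs over all nuclei, 6.58 to 44.8 CPM. The share of nuclei with a UMI after SNI was 6.99% in astrocytes and 6.46% in excitatory neurons. Calca, which encodes the sensory neuropeptide CGRP, went from 10.9 to 42.7 CPM, and 5.44% to 6.53% of the nuclei of each class held a UMI. Markers of motor neurons, which lie in the ventral horn, and of sensory neurons, whose cell bodies lie in the dorsal root ganglia, moved with these genes. Of 6 cholinergic (motor neuron) markers all 6 were higher over all nuclei and their summed level went from 9.51 to 44.7 CPM, against 10.6 to 16.2 in the wild type. Prph, the choline transporter Slc5a7 and the vesicular acetylcholine transporter Slc18a3 made up most of that sum, at 19.1, 13.3 and 8.35 CPM after SNI. Chat, the acetylcholine-synthesising enzyme, had 98 and 109 UMIs, and the motor neuron factors Isl1 and Mnx1 had 50 and 49, and 2 and 3. Of 9 sensory neuron markers 8 had a higher CPM, with a sum of 14.8 CPM in the naive and 65.5 in the SNI library, of which Calca and Prph gave nearly all. The nociceptor channels Scn10a and Trpv1 had 3 and 3, and 9 and 7 UMIs, and Mrgprd was at 0 in both. The Schwann cell marker sum was 90.6 and 104.5 CPM. Their part in the result was not tested. Without the Actb-led cluster the log2 ratios of Sprr1a, Atf3 and Prph over all nuclei were 9.80, 5.86 and 4.77.

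**Figure D2:**
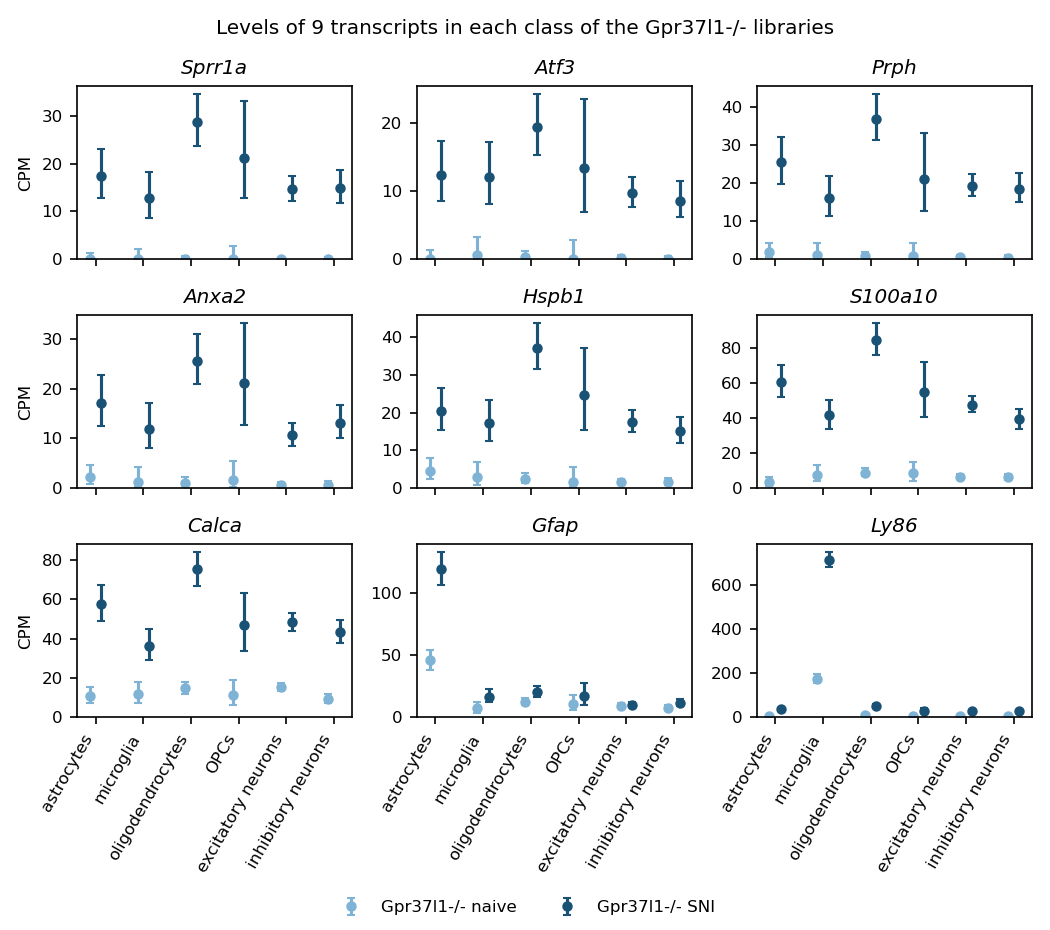
Level of 9 genes in CPM (linear axes from 0) in each of the 6 classes in the naive and SNI knockout libraries, with exact Poisson 95% intervals. Sprr1a after SNI lies between 12.8 CPM in microglia and 28.8 CPM in oligodendrocytes, while Gfap is highest in astrocytes and Ly86 in microglia.

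A small set of genes lay past 2-fold in every class. Predicted genes, Xist and Y-linked genes were left out of these counts. Of the 6537 other genes tested in all 6 classes, 791 were higher and 1028 lower in all of them, and 12 were past 2-fold higher in all. They were S100a10, Calca, Spp1, Cd24a, Rps3a1, the complement genes C1qa, C1qb and C1qc, the protease gene Ctss, and the neurofilament genes Nefl, Nefm and Nefh. Neurofilaments fill large axons, and Nefl had log2 ratios between 1.10 in inhibitory neurons and 1.45 in OPCs. Complement C1q initiates the classical pathway and in the cord is made mainly by microglia. C1qa had log2 ratios of 2.48 in astrocytes, 1.95 in excitatory neurons and 1.23 in microglia. Spp1 (osteopontin) lay between 1.80 in microglia and 2.30 in inhibitory neurons. Microglial markers as a list were higher outside their own class too. The 8 microglia markers summed to between 145 and 257 CPM in the other 5 classes of the naive library and to between 384 and 683 CPM after SNI, with all 8 higher in each. The share of nuclei with a C1qa UMI went from 2.36% to 6.65% in excitatory neurons, at median depths of 1666 and 1261 UMIs, and from 14.9% to 28.3% in microglia. The source of the microglial transcripts in other classes was not tested. Lower past 2-fold in all 6 classes were Zfp933 and Catspere2, with ratios of -1.44 to -2.13 and -1.17 to -1.62.

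In astrocytes, 301 of 10538 genes lay past 2-fold (2.86%), 256 higher (2.43%) and 45 lower (0.427%), with a median of 0.02. In the wild type the share past 2-fold was 1.42%. Of 43 genes on the list of reactive astrocyte genes, 13 reached 50 UMIs, and of these 8 were past 2-fold higher, 0 lower and the median log2 ratio was 1.39. Members nearly absent from the naive library reach the minimum only where they are high, so these counts describe the 13 and not the list. Its measured members were also higher in other classes, with medians of 0.94 in microglia, 0.80 in oligodendrocytes, 0.60 in excitatory and 0.55 in inhibitory neurons. Gfap, the intermediate filament that marks reactive astrocytes (chromosome 11, 102887336 to 102900912), had 128 UMIs in the naive and 328 in the SNI library, 45.6 and 119 CPM, a log2 ratio of 1.39 (1.09 to 1.69). The wild-type ratio was 1.49. Nuclei with a Gfap UMI were 5.90% and 11.7% of astrocytes, and 1.76% and 1.43% of excitatory neurons. Thinned to 1000 UMIs, the astrocyte shares were 4.46% and 7.25%. Unthinned, the share also went from 1.32% to 2.55% in microglia and from 1.23% to 1.69% in oligodendrocytes. It went from 1.68% to 1.97% in OPCs and from 1.53% to 1.83% in inhibitory neurons. Only in excitatory neurons was it lower, with overlapping intervals (1.46 to 2.09 and 1.15 to 1.77). In deeper nuclei (at least 500 genes and 1000 UMIs) the log2 ratio of Gfap was 0.80.

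The larger ratios on the list were of another kind. S100a10 had 9 and 167 UMIs in astrocytes, a log2 ratio of 4.24 (3.28 to 5.40), and Serpina3n, a secreted protease inhibitor, had 10 and 88, 3.17 (2.22 to 4.28). Both were as frequent in neurons. A Serpina3n UMI was found in 3.58% of astrocytes and 3.19% of excitatory neurons after SNI. The complement gene C4b went from 3.92 to 22.9 CPM in astrocytes, with a log2 ratio of 2.55 against 2.91 in the wild type. Lgals1 had 9 and 74 UMIs, Hspb1 13 and 56, and Cd44, the hyaluronan receptor, 17 and 50. Stat3, the transcription factor through which many reactive genes are induced, had a log2 ratio of 0.69 (0.46 to 0.93) and a wild-type ratio of 1.25. Fkbp5, a glucocorticoid target, stood at -0.16. Outside the list, Jun, a subunit of AP-1, went from 11 to 79 UMIs, 2.87 (1.96 to 3.93). In nuclei thinned to 1000 UMIs 4 members of the list reached the minimum and their median was -0.019.

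Genes whose ratio in astrocytes most exceeded that in the other classes included several not on the list of reactive genes. Padi2, a peptidylarginine deiminase that citrullinates proteins such as GFAP and myelin basic protein (chromosome 4, 140906344 to 140952586), had 58 UMIs in the naive and 285 in the SNI library, 20.7 and 104 CPM, a log2 ratio of 2.33 (1.91 to 2.76). Its median over the other 5 classes was -0.08 and its wild-type ratio in astrocytes 0.75. Nuclei with a Padi2 UMI were 3.19% and 11.2% of astrocytes, 2.03% and 9.27% after thinning, and 0.885% and 0.894% of excitatory neurons. Fabp7, a fatty acid-binding protein of radial glia and immature astrocytes, had 30 and 127 UMIs, 2.11 (1.53 to 2.74), against 0.31 over the other classes and -1.03 in the wild type. Both are known from glia, and the higher share of astrocytes with Padi2 was not seen in oligodendrocytes, where it was 8.56% in the naive and 5.26% in the SNI library. Slc2a1, the glucose transporter of astrocytes and vessels, had 55 and 117 UMIs, a log2 ratio of 1.12, and the mitochondrial adenylate kinase Ak4 had 35 and 74, 1.11. Pgm5 and Col16a1 stood at 1.25 and 0.82, with other-class medians of -0.08 and -0.65.

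Genes of glutamate and potassium handling, a housekeeping task of astrocytes, were mostly a little higher. Of 20 such genes 19 passed the minimum, 18 had log2 ratios above 0, none of the 19 lay past 2-fold, and the median was 0.31 against -0.10 in the wild type. The cystine-glutamate exchanger Slc7a11 was the highest at 0.97 (133 and 255 UMIs). The water channel Aqp4 had 0.79, the gap junction gene Gja1 0.51, the glutamate transporter Slc1a2 0.47 (1625 and 2248 CPM) and the potassium channel Kcnj10 0.43. Of the 11 astrocyte markers 6 are on this list, and the marker sum went from 3427 to 4508 CPM while the neuron marker sum in the same nuclei went from 13538 to 9851 CPM. Scaled to the summed markers of the class, the list's median was -0.087, and in deeper nuclei (at least 500 genes and 1000 UMIs) it was -0.016. The part of neuronal RNA in these ratios was not tested. Of 34 synaptic genes 31 were lower in astrocytes, with a median of -0.35, and of 53 ribosomal protein genes all 53 were higher, with a median of 0.58.

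The hedgehog receptor subunit Smo, on the list of GPR37 relatives and their pathway, had 94 and 182 UMIs in astrocytes, 0.98 (0.62 to 1.36), and -0.51 in the wild type. The 13 measured members of that list had a median of 0.09. The engulfment receptor Axl stood at 1.05 (31 and 63 UMIs), and the 20 measured synapse-shaping genes had a median of 0.14. The 12 measured cytokine and NF-kB genes had a median of 0.07, with Il33 at 0.36, Il18 at -0.54 and the inhibitor Nfkbia at -0.39, and none of the 12 was past 2-fold. Of 7 measured interferon response genes, Rtp4 at 1.12 and Ifi27 at 1.05 passed 2-fold. Of all genes tested in the class, 2.43% were past 2-fold higher. The median of the 7 was 0.43, and 0.45 in the wild type over 6 measured. It was 0.43 in excitatory and 0.44 in inhibitory neurons too. The measured immediate early genes, which mark recent activity, did not have a higher median. Of 8 measured, 6 were lower, though none past 2-fold, 2 were past 2-fold higher and the median was -0.23. Jun was among the 2 and passed the minimum only through the SNI library, so these counts describe the 8 and not the list. Egr1 stood at -0.46 (59 and 42 UMIs). The wild-type median was 0.51, but over 3 measured genes only. Among the lowest genes of the class were Hpse2 at -1.52 (79 and 27 UMIs), the fatty acid amide hydrolase gene Faah at -1.49 (63 and 22) and B3gat1 at -1.14 (164 and 73). Cholesterol synthesis genes, of which 28 were measured, had a median of 0.16.

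**Figure D3:**
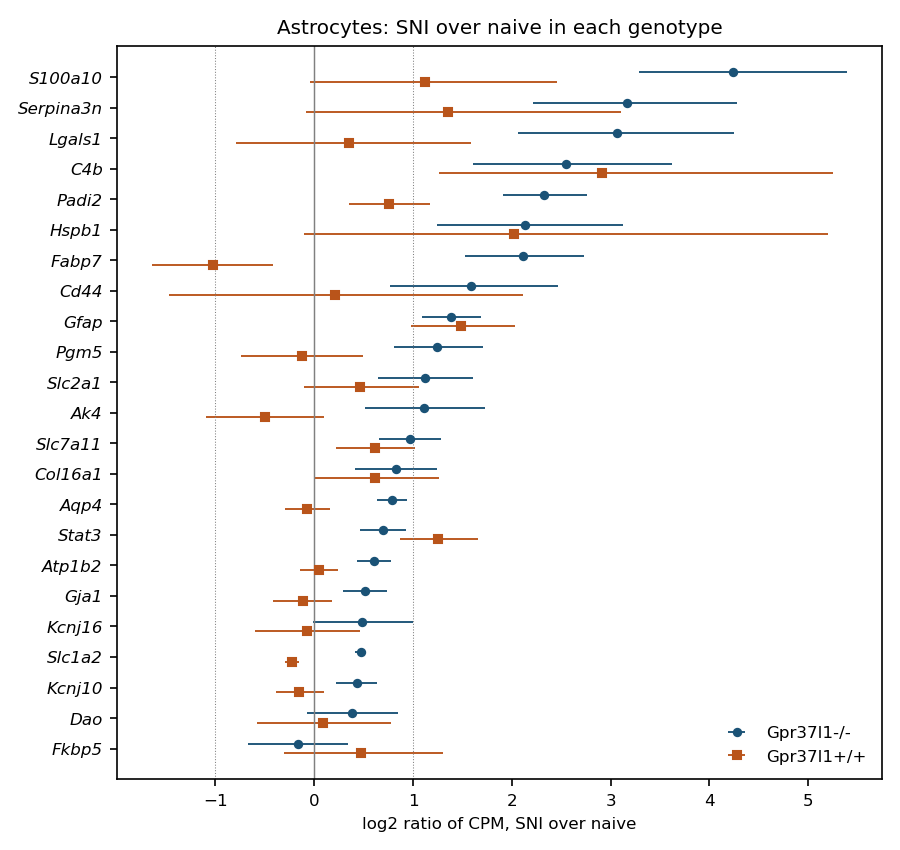
Log2 ratio of SNI over naive in astrocytes for 23 genes, in the knockout and in the wild type, with 95% counting intervals and dotted lines at 2-fold. Gfap lies at 1.39 in the knockout and 1.49 in the wild type, while Padi2 lies at 2.33 and 0.75 and Fabp7 at 2.11 and -1.03.

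In microglia, 301 of 9706 genes lay past 2-fold (3.1%), 274 higher (2.82%) and 27 lower (0.278%), with a median of 0.02. The wild-type share was 8.56%. Most measured genes of both microglial lists had higher levels, in microglia and in the other classes alike. Of 51 genes on the list of microglial injury genes, 31 passed the minimum, all 31 had log2 ratios above 0, 16 were past 2-fold and the median was 1.01. Members nearly absent from the naive library passed only where they were high after SNI, so these counts describe the 31 and not the list. Of 24 homeostatic genes 21 passed, 20 had log2 ratios above 0, 2 were past 2-fold and the median was 0.58. The wild-type medians had the other sign, -0.86 and -1.34. Outside microglia the injury list's median was 1.05 in astrocytes, 1.06 in oligodendrocytes, 0.99 in OPCs, 1.10 in excitatory and 1.02 in inhibitory neurons. That of the homeostatic list was 0.58, 1.07, 0.68, 1.06 and 0.96. Neither list's median was thus larger in microglia than in all other classes.

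Ly86 is on neither list and encodes the partner of the toll-like receptor relative CD180 (chromosome 13, 37345208 to 37419036). It had 300 UMIs in the naive and 1727 in the SNI library, 175 and 712 CPM, a log2 ratio of 2.03 (1.85 to 2.21). Nuclei with a Ly86 UMI were 26.5% of microglia in the naive and 57.5% in the SNI library, 16.3% and 39.7% after thinning. In excitatory neurons they were 0.899% and 4.00%. Ly86 was thus far above the level of the neurons in both libraries. Itgam, the complement receptor subunit CD11b, went from 148 to 676 UMIs, 1.69 (1.43 to 1.96), and Fcrls, a microglial Fc receptor-like gene, from 13 to 181, 3.30 (2.49 to 4.24). The inhibitory Fc receptor Fcgr2b went from 8 to 70, 2.63, and Fcer1g, the signalling chain of activating Fc receptors, from 43 to 186, 1.61. The transcription factor Irf8, required for reactive microglia after nerve injury, stood at 1.57 (61 and 256 UMIs). Trem2 and Tyrobp, which form a lipid-sensing receptor, stood at 1.28 and 1.21.

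Top2a, the DNA topoisomerase of dividing cells, had 6 UMIs in the naive and 54 in the SNI library, 2.67 (1.46 to 4.18), in 4 and 38 microglial nuclei, 0.441% and 2.55% of the class. Excitatory neurons held it in 0.0703% and 0.236%. Of 27 proliferation genes 2 passed the minimum in microglia, so the list cannot be described. The lysosomal gene Ifi30 went from 7 to 80 UMIs, 3.02, and the matrix gene Olfml3 from 27 to 160, 2.07. Complement and antigen presentation genes were also past 2-fold, with C1qc at 1.55 and B2m at 1.14.

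Fcrls and Olfml3 were the 2 homeostatic genes past 2-fold, and the other 19 measured had ratios under 2-fold. P2ry12, the ADP receptor by which microglia sense injury, stood at 0.94 (189 and 513 UMIs, 110 and 212 CPM), Siglech at 0.83, Csf1r at 0.58 and the fractalkine receptor Cx3cr1 at 0.32 (0.14 to 0.51). Apoe, a gene of activated microglia, stood at 0.56. The 15 measured cytokine and NF-kB genes had a median of -0.03, with Nfkbiz at 1.33 and Icam1 at 1.03. Of the 8 microglia markers, 6 are on the homeostatic list, and the composition of the class moved with these ratios. The microglia marker sum was 1859 CPM in the naive and 3088 in the SNI library, and the neuron marker sum 16924 and 13915. In the wild type they were 4488 and 1720, and 8521 and 15922. Scaled to the summed markers, the injury list's median was 0.28 and that of the homeostatic list -0.15. Among nuclei with under 0.5% of UMIs from neuron markers, 120 naive and 696 SNI microglia, the medians were 1.13 (24 measured) and 0.68 (21 measured). The marker sums still differed in these nuclei. That of microglia was 3424.5 CPM in the naive and 5716 in the SNI library, and that of neurons 3715 and 2293. Macrophage markers in the class summed to 6.41 and 11.1 CPM. Among the lowest genes were Plxna1 at -1.20 and Coro6 at -1.10.

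**Figure D4:**
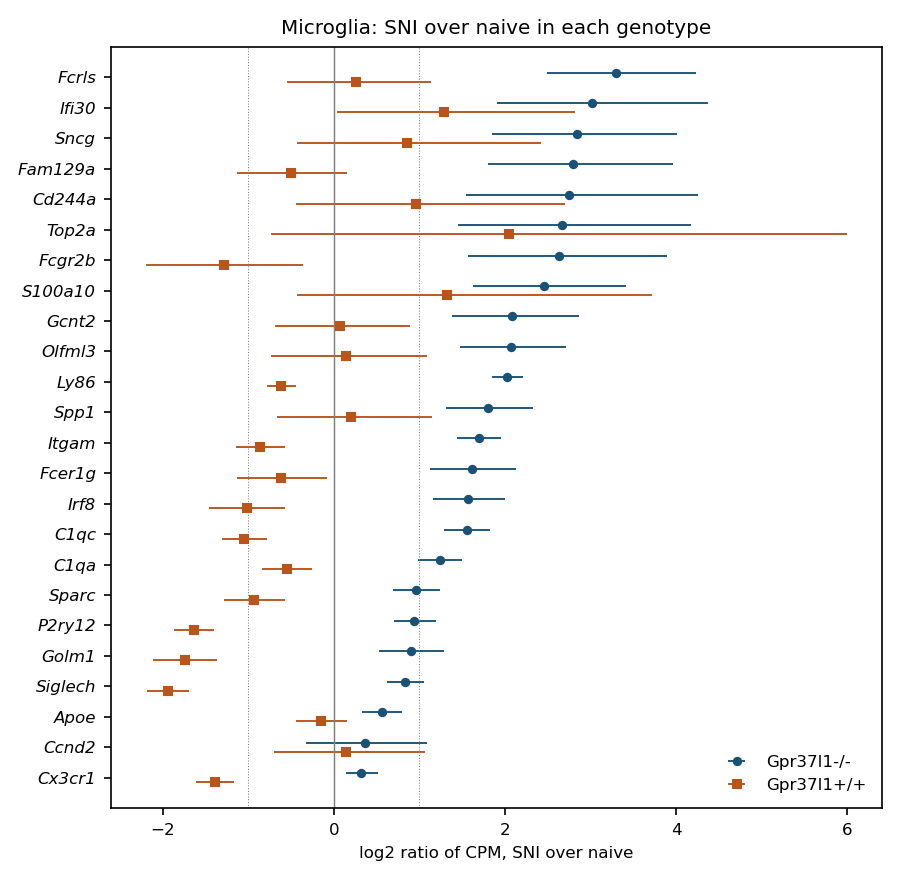
Log2 ratio of SNI over naive in microglia for 24 genes in the knockout and the wild type, with 95% counting intervals and dotted lines at 2-fold. In the knockout Ly86 lies at 2.03, Itgam at 1.69 and P2ry12 at 0.94, and in the wild type at -0.62, -0.86 and -1.64.

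In oligodendrocytes, the myelin-forming cells, 897 of 12080 genes lay past 2-fold (7.43%), 376 higher (3.11%) and 521 lower (4.31%), against 1.34% in all in the wild type. Most of the lowest named genes were neuronal. Lrrtm4, a postsynaptic adhesion gene, had 7312 and 1448 UMIs, 1119 and 359 CPM, and Nrg3 and Kcnip4 had ratios of -1.47 and -1.46. The neuron marker sum of the class went from 7727 to 3658 CPM, all 6 markers lower, against 2294 and 3363 in the wild type. The oligodendrocyte marker sum went from 12359 to 15046 CPM.

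The class joined 2 clusters whose mix differed between the libraries. Cluster 15 held 4662 naive and 2347 SNI nuclei, and cluster 17 held 1658 and 2440. Of the 27 measured myelin genes, 25 had log2 ratios above 0, none was past 2-fold, and the median was 0.30 against -0.10 in the wild type. It was 0.34 in cluster 15 and 0.23 in cluster 17, and 0.020 when scaled to the class markers. Mbp, myelin basic protein, stood at 0.46 (2077 and 2863 CPM), Mog at 0.47 and Ermn, a cytoskeletal gene of late myelination, at 0.76. Of the 9 markers of the class 7 are on this list. Of 36 genes reported to respond in oligodendrocytes after injury 27 were measured, with 6 past 2-fold higher, 1 lower and a median of 0.54. Its members Atf3 (2 and 78 UMIs) and Anxa2 (7 and 103) were also found in the other classes. Such members passed the minimum only through the SNI library, so these counts describe the 27 and not the list. Serpina3n went from 45 to 167 UMIs, 2.59, and Igf1 was lower at -1.20 (78 and 21 UMIs). Circadian genes were mostly lower, 14 of 19 with a median of -0.35 against 0.20 in the wild type, with Rora and Cry1 at -0.80 and Per2 at -0.75. The median was -0.10 in nuclei with under 0.5% of UMIs from neuron markers (13 measured), and -0.33 and -0.13 in clusters 15 and 17 of the class taken alone. Sgk1, a kinase gene induced by glucocorticoids, stood at -0.67 (850 and 330 UMIs) and at 1.19 in the wild type. Hmcn1, a matrix protein gene, had 23 UMIs in 22 nuclei of the naive library and 345 in 159 nuclei after SNI, 4.60 (4.00 to 5.28). That ratio belonged to 1 of the 2 clusters of the class. In cluster 15 alone it was -0.011.

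In OPCs, 169 of 6931 genes lay past 2-fold (2.44%), 114 higher (1.64%) and 55 lower (0.794%), against 1.34% in all in the wild type. Of 29 OPC genes on the list 21 were measured, 16 had log2 ratios above 0 and 1, Gpr17, was past 2-fold. Gpr17, a receptor of newly committed precursors, had 33 and 49 UMIs, 25.2 and 54.7 CPM, 1.12 (0.45 to 1.80), and the early oligodendrocyte gene Enpp6 stood at 0.90. The lineage factor Sox10 stood at 0.93 (0.65 to 1.22) and the receptor Pdgfra, which marks undifferentiated OPCs, at 0.72. The 21 had a median of 0.32 against -0.23 in the wild type, and 5 of the 7 OPC markers are on this list. The median was -0.014 in thinned nuclei, -0.0057 in deeper nuclei and -0.10 after scaling to the OPC markers, whose sum went from 5694 to 7657 CPM. Lower genes included several of neuronal synapses, Il1rapl2 at -1.42, Epha6 at -1.06 and Chrm2 at -1.05. The neuron marker sum in OPCs was 14245 CPM in the naive and 10289 in the SNI library.

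In excitatory neurons 558 of 13880 genes lay past 2-fold (4.02%), 515 higher (3.71%) and 43 lower (0.31%). In inhibitory neurons 454 of 12396 did (3.66%), 396 higher (3.19%) and 58 lower (0.468%). The wild-type shares were 0.739% and 0.714%. Apart from the transcripts found in all classes, neuropeptide and receptor genes of sensory relay had moderate ratios. Grpr, the gastrin-releasing peptide receptor of itch circuits, had 84 and 109 UMIs in excitatory neurons, 6.14 and 12.7 CPM, 1.05 (0.62 to 1.47), and -0.65 in the wild type. Nts (neurotensin), which marks a set of dorsal horn excitatory neurons, went from 76.2 to 148 CPM, 0.96 (0.84 to 1.08), and -0.13 in the wild type. The galanin receptor Galr1 stood at 0.88, Npff at 0.70, Gal at 0.69, Npy1r at 0.59 and Bdnf at 0.54. Of 22 measured neuropeptide genes 16 had log2 ratios above 0, 2 were past 2-fold higher and the median was 0.27. The 2 were Calca and Calcb. The 28 measured peptide receptor genes had a median of 0.25. The opioid genes Pdyn and Oprk1 were on the lower side at -0.51 and -0.67.

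Receptor and channel genes were mostly a little lower. Of 21 glutamate receptor genes 14 were lower in excitatory neurons and the median was -0.11, with Grm2 at -1.02 (42 and 13 UMIs) and the kainate receptor gene Grik3 at -0.84. Of 44 ion channel genes 29 were lower and the median was -0.09, while Scn9a, the sodium channel Nav1.7, stood at 0.41. The serotonin receptor Htr2c had -0.56 and the calcium channel subunit Cacna2d3 -0.59. Axon injury genes had 10 of 30 past 2-fold higher and a median of 0.76, with Jun at 1.58 (63 and 118 UMIs) and Gadd45a at 1.63. Members absent from the naive class, such as Sprr1a, passed the minimum only through the SNI library, so these counts describe the 30 measured. Gap43 stood at 0.35 and Sox11 at 0.22. Fos, the activity marker, had 62 and 36 UMIs, -0.11 (-0.75 to 0.50), and the 17 measured immediate early genes had a median of 0.03.

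In inhibitory neurons the calcium channel subunit Cacna2d1, the target of gabapentin, had 2078 and 784 UMIs, 277 and 158 CPM, -0.81 (-0.93 to -0.69), and 0.18 in the wild type. The activity-dependent factor Nr4a3 stood at -1.91 (57 and 10 UMIs) and at 0.97 in the wild type, and the noradrenaline receptor Adra2c at -1.05 (44 and 14). On the higher side were Scn9a at 0.72 (0.54 to 0.90) and the mu opioid receptor Oprm1 at 0.59 (0.43 to 0.75). Oprm1 and Scn9a stood at -0.34 and -0.10 in the wild type. Genes of inhibitory transmission had log2 ratios near 0. Gad1 stood at 0.23, Gad2 at 0.02, the glycine transporter Slc6a5 at 0.01 and the vesicular transporter Slc32a1 at 0.31, and the 27 measured GABA and glycine genes had a median of -0.06. The 14 measured immediate early genes had a median of -0.12, with 1 past 2-fold in each direction. Ribosomal protein genes were higher in both neuron classes, with medians of 0.51 and 0.46, and cytoplasmic transcripts moved with them. The sum of 8 cytoplasmic markers was 1746 CPM in excitatory neurons of the naive library and 2358 after SNI. Their part in the ribosomal ratios was not tested.

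A cluster led by the endothelial gene Flt1 and left unnamed held 164 naive and 157 SNI nuclei, and 163 of 3197 genes there lay past 2-fold (5.1%). Vwf, the von Willebrand factor stored in endothelial cells, had 18 and 144 UMIs, 54.4 and 421 CPM, 2.95 (2.24 to 3.74), and -0.83 in the wild type. The interleukin 1 receptor Il1r1 had 25 and 185, 2.84, and -0.68 in the wild type. A single nucleus of 17998 UMIs held 61 of the Vwf UMIs after SNI, and without the nucleus richest in the gene in each library the ratios were 2.70 for Vwf and 2.85 for Il1r1. The cathepsin gene Ctsc and the transglutaminase gene Tgm2 stood at 2.62 and 2.06. The barrier transporters Abcg2 and Slco1a4 stood at 0.90 and 0.56 and the tight junction gene Cldn5 at 0.46. The 9 endothelial markers were all higher, with sums of 7779 and 11418 CPM, and the neuron marker sum was 10220 and 6848 CPM. Their part in these ratios was not tested.

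**Figure D5:**
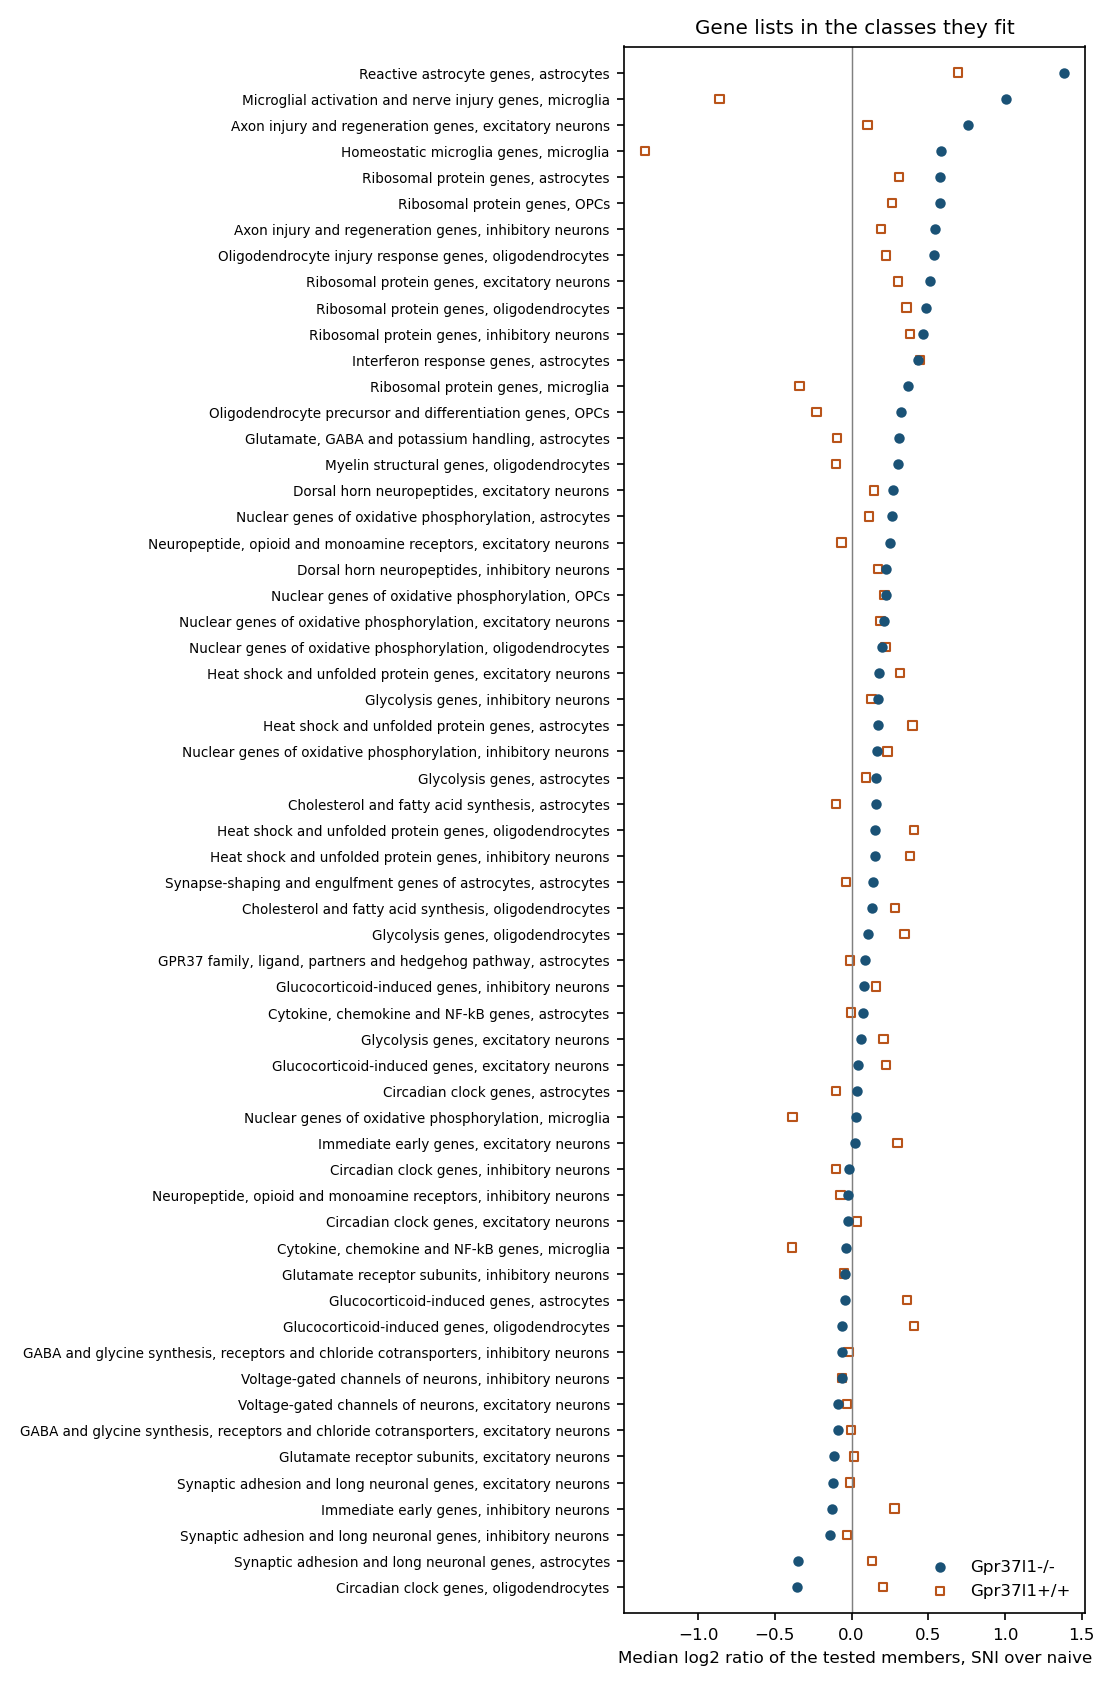
Median log2 ratio of SNI over naive for 59 pairs of gene list and class, in the knockout (filled) and the wild type (open). In the knockout the microglial injury list lies at 1.01 and the reactive astrocyte list at 1.39, and the wild-type medians of these lists lie at -0.86 and 0.69. Each median is over the members measured in that genotype, for the reactive astrocyte list 13 in the knockout and 6 in the wild type.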

How the data were processed

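Nuclei of microdissected dorsal horn were isolated on a sucrose gradient and captured with the 10x 3′ system, per the labels' protocols. The deposited matrices hold UMI counts per gene and nucleus, made with Cell Ranger 7.0.0 per the file headers. The submitters' processing notes name GRCm38, Seurat 4.3.0 and R 4.3.0. Filtered barcodes were 37552 (naive) and 28019 (SNI), of which 55 and 128 failed the filters.

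Doublets were scored with Scrublet in scanpy 1.11.5 (Python 3.11.15), with an expected share of 0.1. The automatic threshold removed 4.79% of naive and 5.65% of SNI knockout nuclei. In the wild type the automatic threshold marked almost none, and the top 10% of scores was removed. All 4 libraries were clustered together (3000 variable genes, 40 components, 20 neighbours, Leiden resolution 1). Counts were summed per library and class. Genes with at least 50 UMIs over the 2 knockout libraries were compared, and past 2-fold was called. Intervals are exact binomial or Poisson and cover counting error only. Coordinates are from GENCODE on GRCm38 (32235 of 32285 genes matched). The ratio computation was tested on simulated data.

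Named genes were Gpr37l1, Gpr37 and Psap, the 6 measured genes of a list farthest from a ratio of 1 plus its defining genes, the 12 highest and lowest genes per class by the interval bound nearest to 0, the 12 most uniform over 6 classes in each direction, and the 8 most particular to astrocytes in each direction. Others named were chosen after their values were seen. The members and lists were chosen with earlier results of these data known. Some genes are not reported here.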

Additional observations from a re-analysis of the deposited data

Results flagged for a closer look

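In microglia the median log2 ratio of SNI over naive had opposite signs in the knockout and the wild type for 4 lists. It was 1.01 in the knockout and -0.86 in the wild type for injury genes, and 0.58 and -1.34 for homeostatic genes. For ribosomal protein genes it was 0.37 and -0.34. For interferon response genes it was 0.37 over 6 measured in the knockout and -0.34 over 4 measured in the wild type. The difference between the genotypes was not tested, since each group is 1 library. The microglia marker sum of the class stood at 1859 CPM in the naive and 3088 in the SNI knockout library, and at 4488 and 1720 in the wild type. The neuron marker sum stood at 16924 and 13915, and at 8521 and 15922. In both genotypes the library with the higher microglia marker sum had the lower neuron marker sum. Their part in the signs was not tested.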

How the results depend on the processing

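No paired analysis was possible because each group is 1 library. With 1 library a group none could be left out. The share of genes past 2-fold depended on the UMI minimum. With a minimum of 20 it was 5.70% in astrocytes, 6.08% in microglia, 6.21% in OPCs, 6.74% in excitatory and 6.42% in inhibitory neurons. With a minimum of 200 it was 0.934%, 1.53%, 0.848%, 1.69% and 1.32%, and 5.09% over all nuclei. As the mean CPM of single nuclei it was 5.03% in microglia. Scaled to the class markers, an alternative chosen after seeing the data, it was 4.69% in astrocytes, 18.8% in microglia and 6.98% in OPCs, and the median gene moved to -0.38, -0.71 and -0.44, and to -0.32 in oligodendrocytes. In nuclei with under 0.5% of UMIs from neuron markers, also chosen after seeing the data, it was 6.46%, 11.5% and 6.10%.

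Most calls past 2-fold were higher after SNI, but this split moved in glia. Thinned and deeper nuclei are nearly the same nuclei, with 841 SNI astrocytes in each, so they are not separate checks. In astrocytes 85.1% of calls were higher, against 57.7% in thinned nuclei, 71.9% in deeper nuclei (at least 500 genes and 1000 UMIs), 67.9% by mean CPM, 54.9% in nuclei poor in neuron markers and 16.2% when scaled. In microglia it was 91.0% against 76.8% by mean CPM, 65.8% in neuron-poor nuclei and 1.86% when scaled. In oligodendrocytes it was 41.9% against 23.1% thinned, 30.7% in deeper nuclei, 26.8% with 200 UMIs and 16.9% scaled. In OPCs it was 67.5% against 45.6% thinned, 55.7% in deeper nuclei, 54.7% by mean CPM and 7.44% scaled.

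List medians turned in thinned nuclei for reactive astrocyte genes (-0.019) and OPC genes (-0.014), in deeper nuclei for astrocyte uptake genes (-0.016) and OPC genes (-0.0057), and when scaled for uptake (-0.087), OPC (-0.10), interferon (-0.36), homeostatic (-0.15) and ribosomal (-0.36) genes, the last 3 in microglia. In deeper nuclei the ratio of shares was 0.967 for astrocytes, 0.806 for OPCs, 0.997 for excitatory neurons and 0.545 for oligodendrocytes, against 1.88, 1.24, 1.13 and 1.03. Single genes turned as follows. Hbb-bs in OPCs was -0.27 at resolution 0.5, -3.14 in neuron-poor nuclei and -0.032 without its richest nucleus. Hbb-bs in astrocytes was 2.71 in neuron-poor nuclei and 0.85 without its richest nucleus. B3gnt2 in OPCs was 1.03 in neuron-poor nuclei, Hmcn1 was -0.011 in oligodendrocyte cluster 15, and Gpr37l1 in thinned excitatory neurons was 2.15. The cause was not tested. Keeping doublets, centring on the median gene, or resolution 0.5 turned no share of genes past 2-fold by over 1.5 times. No cluster had over 90% of its knockout nuclei from 1 of the 2 knockout libraries after correction for library size, so leaving such clusters out altered no value. A cluster of 10 nuclei came from the wild-type SNI library alone. Depth limits the low genes: Tlr4 in microglia, with 8 and 45 UMIs, had an interval of 0.89 to 3.29.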

Other observations

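Of the 69 genes lower past 2-fold over all nuclei in the knockout, 17 lie on chromosome 4, 24.6% of them against 5.82% of the genes tested. Of these 17, 16 start in the distal part of the chromosome, past its middle tested gene. Zfp982 had 205 UMIs in the naive and 16 in the SNI library, Zfp979 had 120 and 9, Zfp933 had 3366 and 606 and Dcdc2b had 589 and 54. Their neighbours Zfp990 and Platr16 had 5 and 95, and 3 and 88. Wild-type ratios were also below 0 for Zfp982 at -1.40, Dcdc2b at -0.89 and Zfp933 at -0.53. Catspere1, a sperm channel gene on another chromosome, had 1389 and 52 UMIs in the knockout and a wild-type log2 ratio of 3.47, and Olfr318 had 198 and 0 UMIs.

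In OPCs and astrocytes most UMIs of the haemoglobin gene Hbb-bs were in 1 nucleus. Hbb-bs in OPCs had 7 UMIs in the naive library and 193 after SNI, of which 189 were in 1 nucleus. In astrocytes it had 173 and 31, and 156 of the 173 were in 1 nucleus. In oligodendrocytes it had 55 and 818, with 336 of the 818 in 1 nucleus. Without the richest nucleus of each library the log2 ratio there was 3.86 (3.45 to 4.29). Few oligodendrocytes held the gene, 55 of 6320 in the naive library (0.870%) and 59 of 4787 after SNI (1.23%). The intervals of these shares overlapped (0.66 to 1.13 and 0.94 to 1.59). The interval of the ratio counts UMIs of the same nucleus as separate, so it is too narrow.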
